A study of Arabidopsis thaliana with 8 samples.

Results

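The expression of 35 Arabidopsis genes that respond to dehydration, cold or the hormone abscisic acid (ABA) was compared in whole seedlings of the voz1 voz2 double mutant and of the wild type Col-0. These 35 genes were taken by locus from the array, which carries 25665 loci. They comprise 6 dehydrins, 8 other protective COR, KIN and LEA proteins, 7 further dehydration and cold outputs, 5 stress NAC and zinc finger factors, the ABA synthesis gene NCED3, 5 protein phosphatases 2C and 3 ABF factors. All 35 had a probe, and 32 were well above the array background on at least 4 of the 8 arrays and were tested. RD29B, KIN1 and HAI2 were too dim for the test.

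The seedlings of both genotypes were 14 days old, came from Murashige and Skoog agar plates kept at 22 °C under days of 16 h and nights of 8 h, and were untreated, so neither group had been dried, chilled or given ABA. Each genotype had 4 samples, and each sample was hybridised to its own 1-colour array. The labels name the mutant only as voz1 voz2, without alleles, and both genes are mutated in the same plants, so the effect of either gene alone was not measured. The labels do not state whether replicates were separate cultures, so a p-value here reflects how these samples scatter, which may be technical. RNA came from whole seedlings, and fewer cells of a type and less RNA per cell cannot be told apart.

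ABA binds receptors of the PYR/PYL family, which then inhibit clade A protein phosphatases 2C. The released SnRK2 kinases phosphorylate ABF transcription factors, which bind ABA-responsive elements in the promoters of RD, RAB and LEA genes. Cold and dehydration also act through CBF and DREB2 factors, which bind the dehydration-responsive element of genes such as RD29A, COR15A and COR47. The proteins at the end of both routes are mostly hydrophilic and are known to protect membranes and enzymes when cells lose water. VOZ1 and VOZ2 are NAC-related transcription factors of vascular plants known for promoting flowering and for roles in stress responses.

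Levels are given as log2 processed signal relative to the 75th percentile of the same array, which is set to 0, and they are compared between samples of 1 gene and never between genes. Both mutated genes were lower in the mutant, VOZ1 by a log2 difference of -1.50 and VOZ2 of -5.74. The arrays fell on 2 slides of 4, each with 2 samples of each genotype, and replicates 1 and 3 shared slide 1 while replicates 2 and 4 shared slide 2. Between 60.65% and 70.42% of the spots on an array were well above background, and 0 were saturated.

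Tissue markers were compared in the same samples. The mean log2 level of 8 root markers ran from -2.73 to -0.49 on the wild type arrays, lowest on wild type replicate 4, and from -0.65 to 0.26 on the mutant arrays. Of the 8, 7 had a value above 0. WOX5, a factor of the root stem cell niche, had a log2 difference of 0.69 with an adjusted p of 0.045. Any left-out sample ended that call (adjusted p 0.066 to 0.126). It also ended with median scaling (adjusted p = 0.163) and with normexp, where the log2 difference was 0.15. The mean level of 4 guard cell markers ran from 0.46 to 0.60 in the wild type and from 0.75 to 0.96 in the mutant, with 0 of the 4 passing the test. Of 5 green shoot markers 0 passed in the main model. For the 2 with a value on all 8 arrays, CAB1 and LHCB3, wild type mean levels ran from 3.98 to 4.71. Mutant mean levels ran from 3.58 to 4.09. CAB1 differed by -0.80 (adjusted p = 0.083, and 0.048 with the slide and 0.076 with the replicate block). Of 4 flower markers 0 passed, with mean levels of -3.72 to -2.54 and of -4.51 to -3.29. Of 8 seed and embryo markers only EM6 was bright enough to test, and CRA1, OLEO2, EM1 and SESA1 were well above background on 0 arrays. The part of these tissue markers in the results below was not tested.

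Of the 32 tested genes, 5 rose in the mutant: ERD7, RD29A, KIN2, ZAT10 and ZAT12. The dehydrin gene XERO1 fell. Over all 24599 genes tested on the array, 4.44% were called at an adjusted p under 0.05, 2.72% higher and 1.72% lower. On 7 of the 32 genes the 4 mutant samples all lay above the 4 wild type samples, which held for 8.46% of all genes, and on XERO1 and ABF4 they all lay below, which held for 7.85%. In all, 19 of the 32 values were above 0, against 47.2% of all genes, and their median log2 difference was 0.30, against -0.030 over all genes. That median depended on single samples: it was 0.090 without wild type replicate 3 and 0.64 without wild type replicate 2, and it was 0.55 on slide 1 and 0.20 on slide 2. With median scaling it was 0.18, against -0.15 over all genes. In the authors' deposited table it was -0.040, against -0.37 over all genes, so in these 2 settings the median of all genes moved down as well. With normexp it was 0.050, against -0.052 over all genes.

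The number of calls depended on the model and on single samples. Same-numbered samples of the genotypes deviated together, as did samples of another number on the same slide. A block for the replicate number gave 10 genes that rose and 2 that fell, where 6.74% of all genes were called in each direction. COR47, ERD10, COR15A, COR15B and LEA14 were added to the higher genes and ABF4 to the lower. With the slide as a block 8 rose and 2 fell, against 8.13% and 7.95% of all genes. Without wild type replicate 2, whose median deviation over these genes (0.34) was the highest of the 4 wild type samples, 11 rose, against 3.62% of all genes. RD29A, ERD7 and ZAT12 were the 3 higher calls without wild type replicate 1 (1.56% of all genes) and without mutant replicate 1 (1.22%), 2 (1.11%) or 4 (1.49%), the last with 2 lower calls, XERO1 and NAC019 (1.11%). RD29A and ERD7 were the 2 higher calls without mutant replicate 3 (1.06%). Background correction by normexp, under which 0.305% of all genes were called higher and 0.0772% lower, left RD29A, ERD7 and ZAT12 as the higher calls and XERO1 uncalled. The same 3 were called with no filter on dim probes (0.881% higher and 0.512% lower), and among probes well above background on all 8 arrays (2.96% and 1.8%) the 5 higher calls held and XERO1 was not tested. Of all genes called, 61.2% were higher, against 79.8% with normexp and 42.9% in the authors' deposited table, in which limma called 0 of the 32 genes (0.122% of all genes higher and 0.163% lower), 2627 of all genes having an unadjusted p under 0.05.

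**Figure D1:**
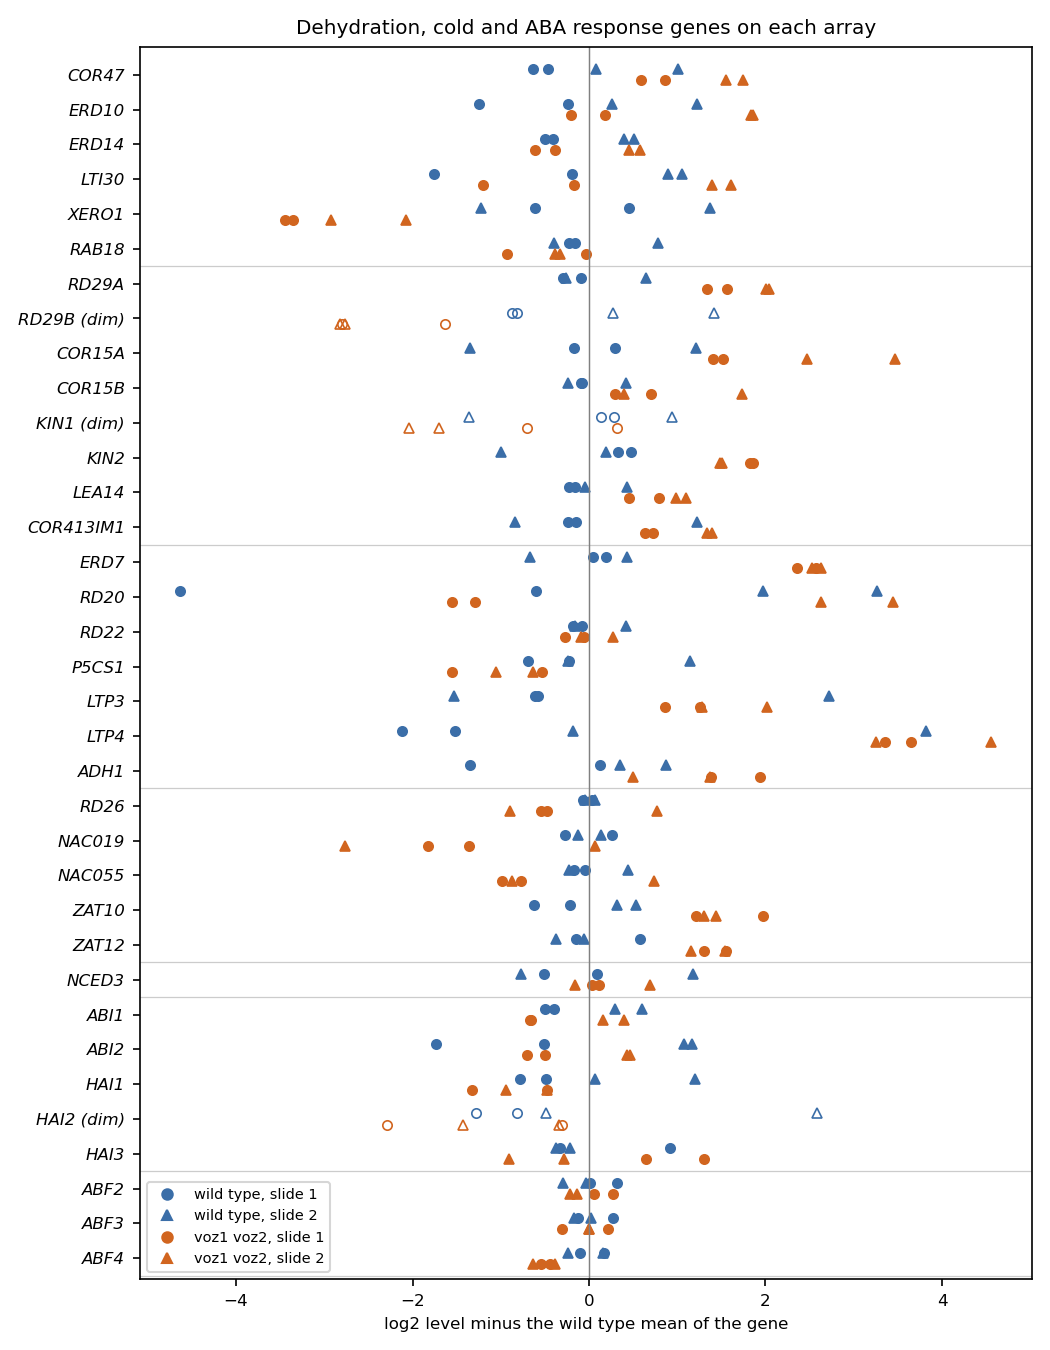
Levels of the 35 genes on each of the 8 arrays, as log2 level minus the wild type mean of the gene, with genes ordered by role, colours for genotype, circles for slide 1, triangles for slide 2 and open symbols for dim genes. RD29A, KIN2, ERD7, ZAT10 and ZAT12 are higher on all 4 mutant arrays, XERO1 is lower on all 4, and the dehydrins ERD10, ERD14 and LTI30 lie higher on slide 2 than on slide 1 in both genotypes.

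Dehydrins, the family of LEA proteins that carry lysine-rich segments, did not move together: of 6, 0 rose and 1 fell, 4 values were above 0, and the median was 0.21. XERO1 (AT3G50980) had levels of -3.97, -5.65, -5.04 and -3.06 in the wild type and of -7.88, -7.35, -7.78 and -6.51 in the mutant. All 4 mutant samples were below all 4 wild type samples, and only 2 mutant samples were well above background. The mean fell from -4.43 ± 1.15 to -7.38 ± 0.62 (SD, n = 4 each), a log2 difference of -2.95 with a standard error of 0.56 and an adjusted p of 0.0295. Leaving out wild type replicate 1 or 4, or any of mutant replicates 1 to 3, ended its call (adjusted p up to 0.0828), and with normexp the difference was -0.52 (adjusted p = 0.94).

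COR47 (AT1G20440), a dehydrin induced by cold through CBF factors, read 0.87, 2.34, 0.70 and 1.41 in the wild type and 1.92, 2.88, 2.2 and 3.08 in the mutant. The groups overlapped because wild type replicate 2 lay above mutant replicates 1 and 3. The log2 difference was 1.19 ± 0.40 (SE) with an adjusted p of 0.128. That adjusted p became 0.018 with the slide block, 0.033 with the replicate block and 0.044 without wild type replicate 2. Leaving out any other sample gave no call (adjusted p up to 0.267). ERD10 (AT1G20450), its neighbour in the genome and a dehydrin of drought and cold, read 1.61, 3.08, 0.62 and 2.12 against 2.04, 3.72, 1.65 and 3.69. Each of its mutant samples exceeded the wild type sample of the same number, and its difference of 0.92 ± 0.64 (adjusted p = 0.426) reached an adjusted p of 0.049 with the replicate block and 0.07 with the slide block.

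The other 3 dehydrins passed no test. ERD14, an acidic dehydrin, differed by 0.0064 (95% interval -0.81 to 0.82). RAB18, the classical ABA-induced dehydrin, differed by -0.42 (interval -1.09 to 0.26, adjusted p = 0.428). LTI30, a cold-induced dehydrin, differed by 0.41 (interval -1.42 to 2.23), an interval wide enough to hold a large change in either direction.

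The other protective COR, KIN and LEA genes gave values above 0 for all 6 tested, with 2 called higher, 0 lower and a median log2 difference of 1.35. RD29A (AT5G52310), a hydrophilic protein whose promoter is the standard reporter for dehydration, cold and ABA, read -0.62, 0.12, -0.82 and -0.78 in the wild type and 0.82, 1.51, 1.04 and 1.48 in the mutant. The lowest mutant sample lay above the highest wild type sample. The mean rose from -0.53 ± 0.44 to 1.21 ± 0.34, a 3.33-fold difference (log2 1.74 ± 0.26 SE, interval 1.15 to 2.33, adjusted p = 0.0114). It was 1.65 on slide 1 and 1.83 on slide 2, and the call held with each sample left out (adjusted p 0.0078 to 0.042).

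KIN2 (AT5G15970), a small hydrophilic protein also called COR6.6, read 3.68, 3.55, 3.84 and 2.36 in the wild type and 5.18, 4.85, 5.22 and 4.87 in the mutant. The mutant samples were close together and wild type replicate 4 was the lowest of all. The mean rose from 3.36 ± 0.67 to 5.03 ± 0.20, which is 3.18-fold (log2 1.67 ± 0.32 SE, adjusted p = 0.0286). Leaving out wild type replicate 1 or any single mutant sample ended the call, with adjusted p up to 0.0816, while the difference stayed between 1.34 and 1.83.

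COR15A (AT2G42540), a chloroplast protein that stabilises membranes during freezing, read -2.39, -1.01, -1.92 and -3.57 in the wild type and -0.81, 1.24, -0.70 and 0.24 in the mutant. The groups did not overlap, but the spread within each was wide. The difference of 2.21 ± 0.62 (SE) had an adjusted p of 0.0796. That adjusted p became 0.040 with the replicate block, 0.051 with the slide block and 0.048 without wild type replicate 2. Leaving out any other sample gave no call (adjusted p up to 0.172). COR15B (AT2G42530), its close homologue in the chloroplast, differed by 0.78 ± 0.32 (adjusted p = 0.194, and 0.048 with the replicate block). LEA14 (AT1G01470), an atypical LEA protein, read 0.77, 1.37, 0.71 and 0.89 against 1.39, 1.92, 1.73 and 2.04. Its groups did not overlap, with wild type replicate 2 just below mutant replicate 1, and its difference of 0.83 ± 0.21 (adjusted p = 0.059) reached 0.016 with the slide block and 0.031 with the replicate block. COR413IM1, a protein of the chloroplast inner envelope, differed by 1.02 ± 0.42 (adjusted p = 0.191, and 0.033 without wild type replicate 2). Leaving out any other sample gave no COR413IM1 call (adjusted p up to 0.395).

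The remaining members of this role were dim. RD29B (AT5G52300), which responds mainly to ABA through ABF sites, read -6.89, -4.65, -6.94 and -5.80 in the wild type and -8.87, -8.89, -7.70 and -8.84 in the mutant. It was well above background on 2 wild type arrays and on 0 mutant arrays, and every mutant sample lay below every wild type sample. With each mutant array set to the higher of its own signal and the lowest signal well above background on it, the mean of the 4 wild type samples was 2.73-fold higher (-6.07 against -7.52). This has no test. Of the 4 wild type samples in that mean, 2 were themselves not well above background, so the value is not a lower bound. KIN1, a close copy of KIN2, was well above background on 0 arrays.

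**Figure D2:**
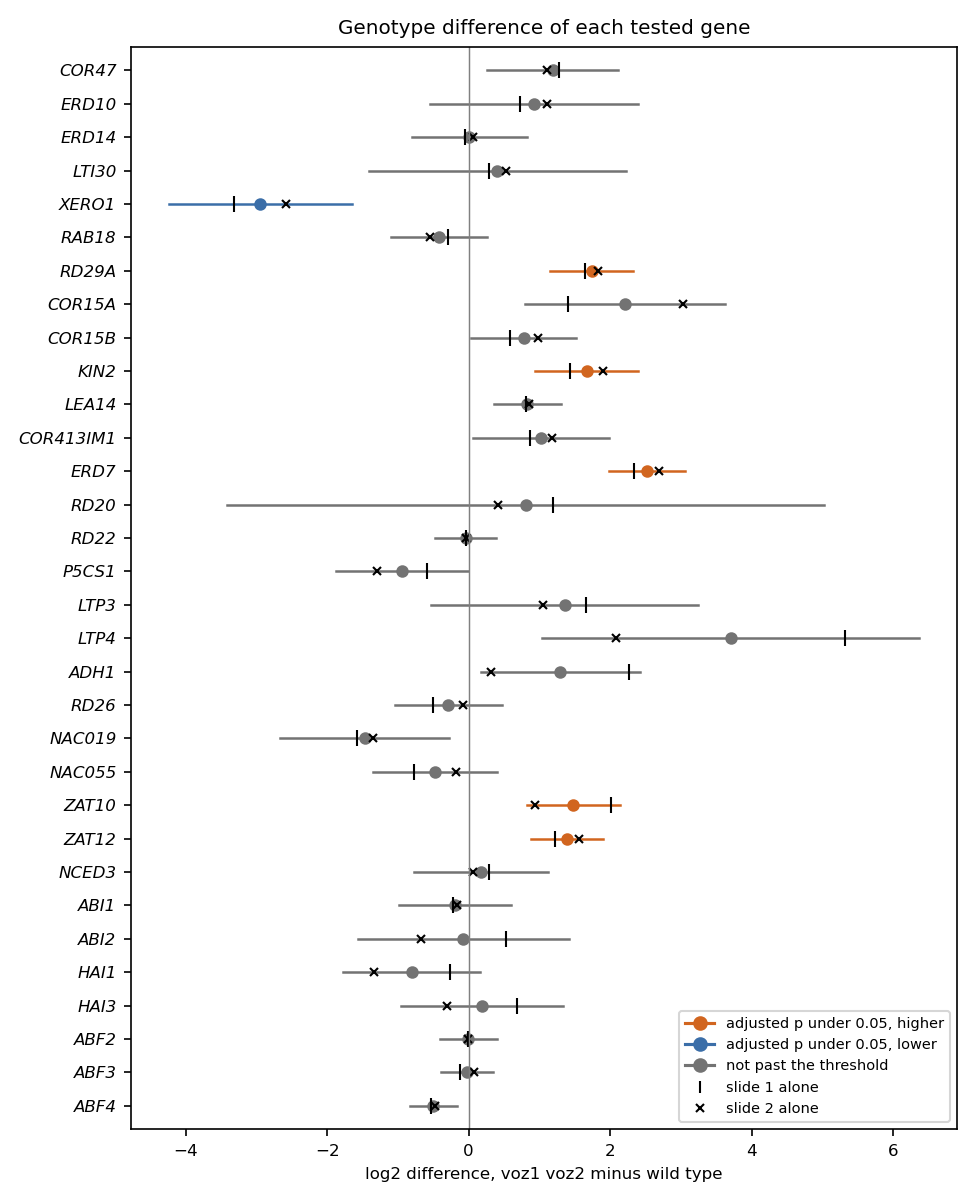
Log2 difference, voz1 voz2 minus wild type, for the 32 tested genes, with points for the estimates, bars for 95% intervals orange and blue for genes called higher and lower, and ticks and crosses for slide 1 and slide 2 alone. ERD7 at 2.52 and RD29A at 1.74 are the higher calls with the smallest p, XERO1 at -2.95 is the lower call, and RD20 and LTP4 have the widest intervals.

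Among 7 further outputs of dehydration and cold, 1 rose, 0 fell, 5 values were above 0 and the median was 1.30. ERD7 (AT2G17840), an early dehydration gene of the senescence and dehydration-associated protein family, read 1.35, 1.59, 1.21 and 0.49 in the wild type and 3.52, 3.79, 3.73 and 3.68 in the mutant. The gap between the groups was wider than the spread within either. The mean rose from 1.16 ± 0.47 to 3.68 ± 0.12, a 5.73-fold difference (log2 2.52 ± 0.23 SE, interval 1.99 to 3.05, adjusted p = 0.0019), and no left-out sample removed the call.

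LTP4 (AT5G59310), a lipid transfer protein of the cuticle and cell wall, read -8.94, -3.00, -8.34 and -7.00 in the wild type and -3.17, -3.57, -3.46 and -2.26 in the mutant. Wild type replicate 2 was the only wild type sample in the range of the mutant, and the only one well above background. The difference of 3.70 ± 1.17 shrank to 0.45 with normexp. Its adjusted p of 0.107 became 0.049 with the slide block, 0.079 with the replicate block and 0.0068 without wild type replicate 2. Leaving out any other sample gave no LTP4 call (adjusted p up to 0.223). LTP3 (AT5G59320), its neighbour and close homologue, read -6.19, -2.85, -6.16 and -7.11 against -4.71, -4.29, -4.32 and -3.57. Here the same wild type sample was the highest of all 8. The difference of 1.36 (interval -0.53 to 3.24, adjusted p = 0.359) became 2.26 without that sample (adjusted p = 0.017) and -0.0072 with normexp. Leaving out any other sample gave no LTP3 call (adjusted p up to 0.642). As homologues, the 2 genes may share signal on their probes.

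RD20 (AT2G33380), a calcium-binding caleosin of lipid bodies, varied most between slides: it read -2.92, 0.93, -6.96 and -0.36 in the wild type and -3.88, 0.30, -3.62 and 1.12 in the mutant. Both genotypes were low on slide 1 and high on slide 2, and the difference between genotypes was 0.81 with an interval of -3.41 to 5.03. RD20 was well above background on 3 of 4 wild type arrays, and with normexp its difference was 0.10. P5CS1, the enzyme that controls proline synthesis under stress, differed by -0.94 (interval -1.87 to -0.013, adjusted p = 0.206). ADH1, alcohol dehydrogenase, differed by 1.30 ± 0.49 (adjusted p = 0.159), with 2.27 on slide 1 and 0.32 on slide 2. RD22, a BURP-domain protein, differed by -0.039 with a narrow interval of -0.47 to 0.39.

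**Figure D3:**
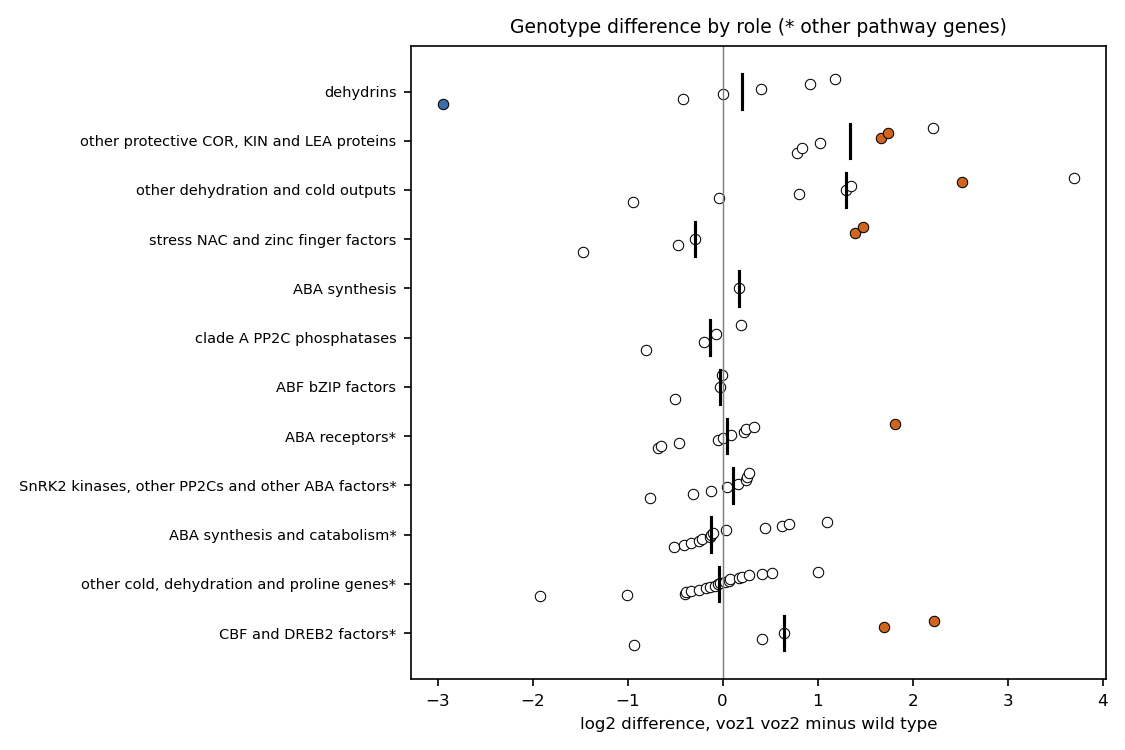
Log2 difference, voz1 voz2 minus wild type, of each tested gene grouped by role, with the other pathway lists below (asterisks), the median of each list as a bar and filled points for genes with an adjusted p under 0.05. The medians of the COR, KIN and LEA group (1.35) and of the further outputs (1.30) lie above 0, those of the phosphatases (-0.13) and ABF factors (-0.024) lie near or below it.

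Of the 5 stress transcription factors both zinc finger genes were called higher, and of the 3 NAC genes 0 were called in the main model. A difference between these families was not tested. ZAT12 (AT5G59820), a zinc finger protein of oxidative and cold stress, read 0.0068, -0.22, 0.74 and 0.10 in the wild type and 1.46, 1.32, 1.71 and 1.69 in the mutant. Every mutant sample was above every wild type sample, and the mean rose from 0.16 ± 0.41 to 1.55 ± 0.19, which is 2.62-fold (log2 1.39 ± 0.22 SE, adjusted p = 0.0147, and 0.051 without mutant replicate 3). ZAT10 (AT1G27730), a zinc finger repressor induced by salt and cold, read 0.98, 1.51, 0.57 and 1.73 against 3.17, 2.64, 2.41 and 2.50. The groups were again apart, and the mean rose from 1.2 ± 0.52 to 2.68 ± 0.34, which is 2.79-fold (log2 1.48 ± 0.29 SE, adjusted p = 0.0303). It was 2.01 on slide 1 and 0.94 on slide 2, and leaving out wild type replicate 1 or any single mutant sample ended the call (adjusted p up to 0.0812).

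The NAC genes NAC019, NAC055 and RD26 encode close relatives induced by drought, salt and ABA. NAC019 (AT1G52890) read 0.82, 0.69, 0.28 and 0.43 in the wild type and -0.80, -2.21, -1.26 and 0.63 in the mutant. Mutant replicate 4 stood among the wild type samples while the other 3 lay below all of them. The difference of -1.47 ± 0.52 (adjusted p = 0.140) became -1.98 without mutant replicate 4 (adjusted p = 0.031). Leaving out any other sample gave no NAC019 call (adjusted p up to 0.274). In RD26 and NAC055, unlike in NAC019, mutant replicate 4 was the highest of all 8 samples, at 2.77 and -0.67. The difference of RD26 was -0.29 (interval -1.04 to 0.47) and -0.64 without that sample (adjusted p = 0.084), and that of NAC055 was -0.47 and -0.88 (adjusted p = 0.069). The flower marker PI, a floral homeotic factor, also stood high in mutant replicate 4, at 1.80. The other mutant samples read -0.48, -3.02 and -3.06 for PI, and the wild type -0.74, 1.51, 1.80 and 1.39. AG, AP3 and SEP3, of the same marker list, were not highest in that sample. They read -7.93, -6.39 and -0.62 there, against up to -6.92, -5.41 and -0.59 in the other mutant samples. The part of PI in the NAC values was not tested.

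The genes of ABA synthesis and signalling among the 35 gave no call in the main model. NCED3, the dioxygenase that limits ABA synthesis under drought, differed by 0.17 (interval -0.78 to 1.12). The phosphatases ABI1, ABI2, HAI1 and HAI3, which hold the pathway off and are themselves induced by ABA, differed by -0.19 (interval -0.98 to 0.59), -0.074 (-1.57 to 1.42), -0.81 (-1.78 to 0.17) and 0.19 (-0.96 to 1.34). HAI2 was too dim to test. These intervals do not show that the levels were alike, and those of NCED3, ABI2, HAI1 and HAI3 reach beyond a log2 difference of 1 on at least 1 side.

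ABF4 (AT3G19290), a bZIP factor that binds ABA-responsive elements, read 2.67, 2.53, 2.94 and 2.93 in the wild type and 2.22, 2.13, 2.33 and 2.38 in the mutant. All mutant samples lay below all wild type samples by a small margin. The difference was -0.50 ± 0.15 (adjusted p = 0.0884), and it was called with the slide block (adjusted p = 0.044) and with the replicate block (0.037). ABF2, differing by -0.0046 (interval -0.41 to 0.40), and ABF3, differing by -0.024 (-0.40 to 0.35), had intervals centred close to 0.

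Other genes of the same pathways were read from lists of textbook genes. Over all genes 2.72% were called higher and 1.72% lower. Counts of 0 or 1 in lists this short are near those shares and are not read as results about a list. Of 14 ABA receptors 10 were tested, and PYL10 rose (1.82 ± 0.35 SE, adjusted p = 0.030, well above background on 2 of 4 wild type arrays) while 0 fell. The PYL10 call ended without wild type replicate 1 or any single mutant sample (adjusted p up to 0.079), with no filter (0.058) and with normexp, where the difference was 0.13. PYL7, PYR1 and PYL2 followed by p with -0.65, -0.46 and 0.33, none of them called. Of 11 SnRK2 kinases, other phosphatases and other ABA factors 8 were tested and 0 were called, with 1 at an unadjusted p under 0.05. That gene was the phosphatase HAB1, with -0.77 (adjusted p = 0.167, and 0.029 with the slide and 0.028 with the replicate block). Of 14 further genes of ABA synthesis and catabolism 13 were tested and 0 were called, the smallest p belonging to CYP707A3, an ABA hydroxylase, with 1.10 (adjusted p = 0.150).

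All 20 genes of a list of other cold, dehydration and proline genes were tested and 0 were called. Over all genes 4.44% were called, so this count is near that share and is not read as a result about the list. COR28, a cold-regulated gene, had 1.0 (adjusted p = 0.068, and 0.013 with the slide and 0.033 with the replicate block), and COR413IM2, a close relative of COR413IM1, had 0.52 (0.134, and 0.030 and 0.040). ERD5, proline dehydrogenase, had -1.92 (adjusted p = 0.091, and 0.028 with the replicate block). Of the CBF and DREB2 factors, CBF1 rose by 2.22 (adjusted p = 0.009, well above background on 2 of 4 wild type arrays) and DREB2B by 1.70 (0.006), and with normexp neither was called, at 0.25 and 0.75 (adjusted p = 1 and 0.47). CBF2 had 0.64, DREB2A 0.41 and CBF3 -0.93, the last with an adjusted p of 0.066 that became 0.033 with the slide and 0.021 with the replicate block.

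Among the 35 genes, 6 pairs are direct neighbours in the RefSeq gene order, with 0 genes between them, and belong to a common family or function. In 4 of the pairs a gene was not well above background on some or all arrays (RD29B, KIN1, XERO1 and LTP4), and the difference within these pairs is not read here. In the other 2 pairs both genes were well above background on all 8 arrays. The genotype difference of one gene was set against that of its neighbour by an exact two-sided permutation test over the 8 samples, whose smallest possible p is 0.0286, with adjustment over the 6 pairs. COR15A had a log2 difference 1.43 above that of COR15B (adjusted p = 0.043, and 0.069 with quantile scaling and 0.17 with normexp). Its exact p before adjustment was 0.0286, the smallest possible. The adjusted p under 0.05 rests on dim pairs, not read here, that reached the same exact p, so it is not read as a result. The log2 difference of COR47 was 0.27 above that of ERD10 (adjusted p = 0.571).

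**Figure D4:**
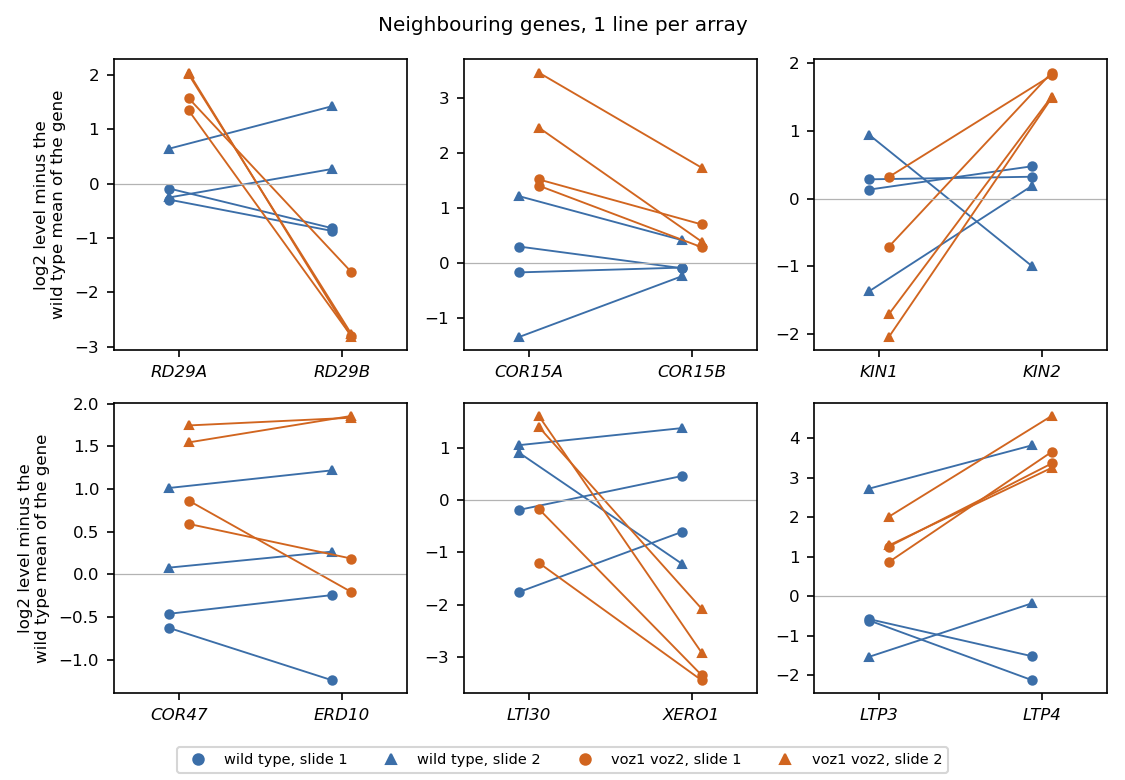
Level minus the wild type mean of the same gene, in log2 units, for both genes of the 6 neighbouring pairs with 1 line per array joining the pair, coloured by genotype. RD29B, KIN1, XERO1 and LTP4 include arrays on which they were not well above background, and the difference within their pairs is not read. On the mutant arrays RD29A lies above 0 and LTI30 scatters around 0, and the lines that join COR47 and ERD10 slope both ways in both genotypes.

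Part of the scatter followed slide. With slide added as a measured term, a choice made after seeing the data, 7 of the 32 genes were higher on slide 2 and 0 were lower, where 14.4% and 14% of 24596 genes were called. They were COR47 (1.01), ERD10 (1.67), ERD14 (0.96), LTI30 (2.07), RD20 (4.85), ABI1 (0.92) and ABI2 (1.65), each given as log2 level on slide 2 minus slide 1. Of these, 4 are dehydrins and 2 are phosphatases, and in the same model COR47 was also called for genotype. Without slide in the model, 0 of the 7 were called between genotypes. The median over the 32 genes was 0.44 against -0.10 over all genes. Without wild type replicate 4 the count higher on slide 2 was 11. The share of all genes in that setting is not given here, so that count is not read. Slide and culture of the replicates cannot be told apart. For a genotype difference that depends on slide, 0 of 24570 genes were called by limma, 386 had an unadjusted p under 0.05, and among the 32 genes ADH1 and ZAT10 did.

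**Figure D5:**
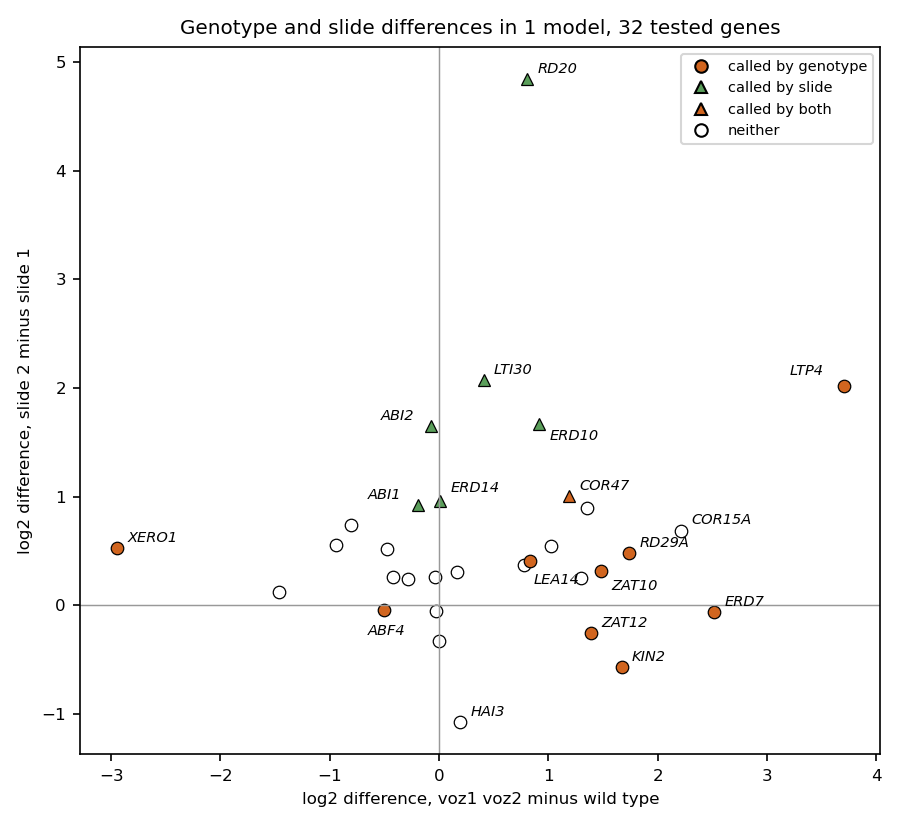
Genotype difference (voz1 voz2 minus wild type, log2) on the horizontal axis against slide difference (slide 2 minus slide 1, log2) on the vertical axis for the 32 tested genes, both from the model with slide as a term and marked by which of them was called at an adjusted p under 0.05. The 7 genes called for slide lie high on the vertical axis, and COR47 is the gene called for both.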

How the data were processed

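Total RNA of 8 whole-seedling samples was hybridised to 1-colour Agilent arrays. The deposited spot intensity is the scanner software's processed signal, already background-subtracted, written by Agilent Feature Extraction 9.1.3.1 per the submitters' processing notes. The authors' deposited table is on a natural log scale. Compared with the scanner output, its columns are the logged processed signal less 6.422 on wild type and less 6.911 on mutant arrays, which is 0.706 apart in log2 units. The table thus has no scaling of single arrays, and its array medians ran from -2.67 to -1.28. The sources used here give no reason for the 2 subtracted values, and the table served as an alternative only.

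Control probes and outlier spots were left out, log2 of the signal was taken minus the 75th percentile of each array, and a probe was kept if 4 or more of the 8 arrays had it well above background, with the brightest probe per locus. Limma 3.58.1 in R 4.3.3 (lmFit, eBayes) compared genotypes over 24599 genes with Benjamini-Hochberg adjustment at 0.05. All adjusted p-values in the report come from it except those of the neighbouring pairs. The scanner files lack a mean signal column, so normexp (offset 50) used the median signal with the median background. The procedure was tested on simulated data. The number of arrays limits the precision.

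Deviations of same-numbered samples from their group means correlated at 0.32, 0.51, 0.46 and 0.61 for replicates 1 to 4. Samples of another number on the same slide correlated at 0.27 to 0.54, and 2 of 4 wild type samples correlated best with their own number. These ranges overlap, and samples of the same number share a slide, so pairing by number cannot be told apart from slide. The labels state no pairing. The main model and the neighbouring-pair test carry no block for the replicate number, as planned, and blocked values stand beside the results whose call they change.

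The genes and lists were chosen with earlier results of these data known. All 35 genes are named, with up to 4 genes of smallest p from each other list and all CBF and DREB2 genes. Names follow common use, and RefSeq calls RD29A LTI78, RD29B LTI65, NAC055 NAC3, ZAT10 STZ and ZAT12 RHL41. ABF3 had 2 probes (-0.024 and 0.077), the others 1. A promoter motif description that had been planned was not made.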

Additional observations from a re-analysis of the deposited data

Results flagged for a closer look

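Among 64 sets of 4 samples of a genotype, 2 held a sample whose gap to its nearest neighbour took up most of the range (Dixon's test), where chance gives about 1 in 20. NAC055, the stress NAC factor, stood at -0.67 in mutant replicate 4, against -2.19, -2.28 and -2.40 in the other mutant samples. HAI3, a phosphatase of the ABA pathway, stood at -5.95 in wild type replicate 1, against -7.08, -7.20 and -7.24 in the other wild type samples. HAI3 was well above background on 2 wild type and 3 mutant arrays.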

How the results depend on the processing

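RD29A and ERD7 kept their calls under every setting except the deposited table, which has no scaling of single arrays, and either slide alone. Genes called over the array numbered 1091, and 715 with median scaling, 94 with normexp, 70 in the deposited table, 514 with no filter, 3955 with the slide block and 3314 with the replicate block. Leaving out 1 sample gave 387 to 1506 genes. Of the 32 tested genes, 2 to 11 were then higher, against 1.06% to 3.62% of all genes. Lower calls then numbered 0 to 2, against 0.467% to 2.5% of all genes. Normexp called 3 of 32 higher and 0 lower (0.305% and 0.0772% of all genes). With no filter 3 of 35 were higher and 0 lower (0.881% and 0.512%). The deposited table gave 0 of 32 in either direction (0.122% and 0.163%). Among probes well above background on all 8 arrays 5 of 28 were higher and 0 lower (2.96% and 1.8%). The slide block called 8 of 32 higher and 2 lower (8.13% and 7.95%), and the replicate block 10 and 2 (6.74% each). On slide 1 or slide 2 alone limma called 0 genes (4486 and 4029 at an unadjusted p under 0.05, with 2 samples a group). Median scaling placed the median of all genes at -0.15 and the deposited table at -0.37, against -0.030. Quantile scaling kept the same 5 higher and 1 lower calls, as did the mean of probes. The replicate block changed no call among the 35 genes other than those of COR47, ERD10, COR15A, COR15B, LEA14 and ABF4.

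Values of uncalled genes turned sign, none passing the test there: ERD14 with median scaling (-0.11), in the deposited table (-0.33) and on slide 1 (-0.049); RD22 (0.0047) and LTP3 (-0.0072) with normexp; NCED3 with normexp (-0.0019) and in the deposited table (-0.17); ABI2 on slide 1 (0.52); HAI3 with normexp (-0.060), in the deposited table (-0.15) and on slide 2 (-0.30). ABF2 turned with quantile scaling (0.015) and normexp (0.048), and ABF3 with the mean of probes (0.027) and on slide 2 (0.073). With 1 sample left out, values ran from -0.10 to 0.10 for ABF2, -0.10 to 0.070 for ABF3, -0.39 to 0.0059 for ABI1, -0.65 to 0.31 for ABI2 and -0.19 to 0.21 for ERD14. They ran from -0.18 to 0.55 for HAI3, -0.18 to 0.94 for LTI30, -0.088 to 0.56 for NCED3, -0.74 to 1.89 for RD20 and -0.14 to 0.10 for RD22.

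The neighbouring pairs other than COR15A with COR15B and COR47 with ERD10 include genes not well above background on some or all arrays, and their values are listed without being read. Quantile scaling gave COR15A minus COR15B 1.49 (exact test, adjusted p = 0.069) and KIN1 minus KIN2 -2.25 (0.043). Normexp gave RD29A minus RD29B 1.96, COR15A minus COR15B 1.25, LTI30 minus XERO1 0.72 and LTP3 minus LTP4 -0.46, none passing. By slide, RD29A minus RD29B was 3.02 and 5.46, LTP3 minus LTP4 was -3.67 and -1.03, and COR47 minus ERD10 was -0.0038 on slide 2. The count of genes higher on slide 2 was 7 to 11 with 1 sample left out. It is not read, because the share of all genes in these settings is not given here. The cause of these changes was not tested. Dim probes limit RD29B, KIN1, HAI2, XERO1, LTP4, HAI3 and RD20.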
